A study of Danio rerio with 16 samples.

Results

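Vsnl1a, vsnl1b, hpcal1, hpcal4, nrgna, calb1, calb2a and calb2b are zebrafish genes of neuronal calcium signalling, for calcium sensors, calcium buffers and, with nrgna, a calmodulin-binding protein, and they are 8 of the 31901 genes measured in dissected larval eyes and in dissected larval brains. They were picked by gene symbol, with earlier results of these data in view, those of exposed against vehicle eyes among them. How far these values guided the pick is not recorded. The contrast of exposed with vehicle larvae is therefore given as a description in both tissues, and no p of it is used as support for a change in these genes.

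All larvae were wildtype zebrafish. Phenol isopropylated phosphate (IPP), a flame retardant and plasticizer of the organophosphate class, was given at 0.2 uM in 0.02% dimethyl sulfoxide (DMSO), and vehicle larvae received 0.02% DMSO alone. Exposure ran from 6 to 120 hours post fertilization (hpf), when eyes and brains were dissected for RNA sequencing. Vehicle and exposed larvae, each with eyes and brains, make up 4 groups of 4 libraries, 16 in all, and IPP eyes are also called exposed eyes below. How many larvae went into a library, and whether the libraries of a group came from separate clutches, is not stated in the labels, so every p-value speaks of the spread among these libraries alone. The study is titled after deficits of the larval photomotor response, the movement set off by a change in light.

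Calcium that enters a firing neuron acts through proteins that bind it in loops called EF hands. Sensors such as the visinin-like and hippocalcin-like proteins change shape when they bind calcium and move to membranes, where they adjust receptors and signalling enzymes. Buffers such as calbindin and calretinin hold calcium and shape how far and how long a signal spreads, and calmodulin passes the signal to kinases and phosphatases. In the vertebrate retina, calretinin and calbindin are widely used to label ganglion, amacrine and horizontal cells.

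Levels are given in FPKM, read numbers divided by gene length and by a size factor of the library, so that levels of different genes can be set side by side. Reads rebuilt from the FPKM numbered 10.6 M to 12.5 M in an eye library and 9.62 M to 16.3 M in a brain library. The size factor implied by the FPKM was not this read total. It was 12.96 M against 12.03 M reads in eye DMSO 4 and 15.15 M against 16.29 M in brain IPP 4. The libraries matched their tissue labels. Summed levels of 12 photoreceptor markers were 16820 to 20366 FPKM in eyes and 3.15 to 171 in brains, and those of 9 lens markers were 10785 to 24244 and 0.689 to 1.41. Summed levels of 12 neuron markers were 1454 to 2051 FPKM in eyes and 3956 to 5030 in brains. Some libraries stood apart. The summed liver and gut markers reached 4819 FPKM in brain DMSO 1 and 10373 in brain IPP 4, against 10.3 to 161 in the other brain libraries, and the skin markers reached 702 to 1134 in brain DMSO 4, IPP 3 and IPP 4 against 18.0 to 303. Summed muscle markers reached 682 FPKM in brain DMSO 4 and 384 in brain IPP 4, against 32.7 to 134 in the other brains. Brain IPP 4 also held the highest photoreceptor sum of the brains. Eye DMSO 4 held the lowest lens sum of the eyes, and eye DMSO 1 the highest liver and gut sum.

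In DMSO eyes the calretinin gene calb2b stood far above the other genes of the group. Its mean level was 615 ± 39.5 FPKM (SD, n = 4), which placed it at rank 106 of the 31901 genes of the eye table. The next genes formed a band of neighbours whose ranges overlapped. This band held nrgna at 105 ± 7.81 FPKM, calb2a at 77.3 ± 17.9, vsnl1b at 67.4 ± 6.15 and vsnl1a at 54.1 ± 5.39. Below it lay calb1 at 9.32 ± 1.46 FPKM, hpcal4 at 4.23 ± 0.518 and hpcal1 at 2.53 ± 0.117, each with a range that did not reach that of its neighbours.

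In DMSO brains the order was different. The visinin-like gene vsnl1b came first at 265 ± 1.19 FPKM, rank 188 of the brain table, and its paralog vsnl1a followed at 118 ± 12.7 with no overlap of ranges. Then came nrgna at 77.0 ± 9.28 FPKM, calb2a at 66.9 ± 6.17 and calb2b at 60.4 ± 5.11, neighbours whose ranges overlapped. The lowest were again calb1 at 29.2 ± 4.08 FPKM, hpcal4 at 17.7 ± 0.124 and hpcal1 at 9.39 ± 1.32, each apart from the next.

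**Figure D1:**
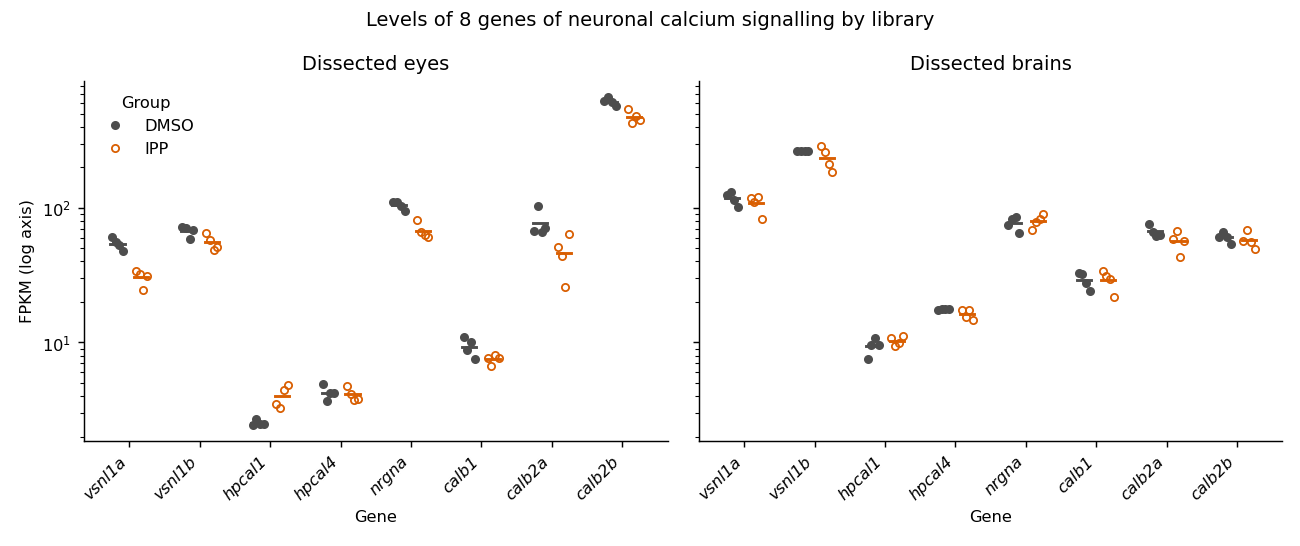
Level of each gene in every library, in FPKM on a log axis, with DMSO as filled and IPP as open points and the group mean as a bar. Calb2b leads in eyes and vsnl1b in brains. In eyes the IPP points of vsnl1a, nrgna, calb2a and calb2b lie below all DMSO points and those of hpcal1 lie above them.

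The eye and brain tables may have been scaled separately, so levels set across them are a description with no test. The mean level of calb2b was 10.2-fold higher in DMSO eyes than in DMSO brains, while that of its paralog calb2a was similar in both, with overlapping ranges. Nrgna was 1.36-fold higher in eyes. The other genes were higher in brains, by 4.18-fold for hpcal4, 3.93-fold for vsnl1b, 3.71-fold for hpcal1, 3.13-fold for calb1 and 2.17-fold for vsnl1a. The paralog ratios carry the same contrast within a library, where the scaling cancels. Calb2b was at 8.17 ± 1.35 times the level of calb2a in DMSO eyes and at 0.907 ± 0.0947 times in DMSO brains, and vsnl1b was at 1.25 ± 0.141 and 2.27 ± 0.249 times the level of vsnl1a.

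Visinin-like 1 is a neuronal calcium sensor that in mammals is abundant in brain neurons. The gene vsnl1a (chromosome 20, 35382482 to 35429737, plus strand, protein-coding; positions as printed in the tables, on a build that the sources used here do not name) lay lower in every IPP eye than in any DMSO eye. It stood at 60.2, 55.9, 52.7 and 47.4 FPKM in DMSO eyes 1 to 4 and at 34.0, 32.2, 24.6 and 30.9 in IPP eyes 1 to 4. The groups were separated by a gap between 34.0 and 47.4 FPKM, and IPP eye 3 was the lowest of the 8. The mean went from 54.1 ± 5.39 to 30.4 ± 4.07 FPKM, a log2 fold change of -0.82 (SE 0.12, 95% interval -1.08 to -0.56), computed, as are all log2 fold changes here, on FPKM + 0.5. It did not pass the correction over the 17096 eye genes tested (limma, adjusted p = 0.189, with 0.189 to 0.942 over the 8 genes).

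In brains vsnl1a stood at 124, 131, 114 and 101 FPKM in DMSO libraries 1 to 4 and at 119, 111, 119 and 82.3 in IPP libraries 1 to 4. The brain groups overlapped, and the lowest value was that of IPP 4, one of the libraries that stood apart. The log2 fold change was -0.13 (95% interval -0.44 to 0.18), and it was 0.02 without DMSO 1 and IPP 4, the pair with high liver and gut markers. Besides a short ribosomal RNA gene and 136 bases of a short non-coding transcript, both on the same strand, no other gene overlapped vsnl1a. The ribosomal RNA gene was at 0.740 to 2.95 FPKM in DMSO eyes and 0 to 1.29 in exposed eyes. The non-coding transcript was at 0 to 1.55 FPKM in DMSO eyes and 0 to 1.42 in exposed eyes. The part of their reads in the vsnl1a values was not tested.

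Its paralog vsnl1b (chromosome 17, 6715575 to 6759149, minus strand) showed a smaller difference. It ranged over 58.4 to 72.1 FPKM in DMSO eyes and 48.8 to 65.2 in exposed eyes, so the groups overlapped, with a log2 fold change of -0.27 (SE 0.11, 95% interval -0.52 to -0.03). In brains vsnl1b stood at 266, 264, 264 and 264 FPKM in DMSO libraries and at 288, 259, 210.3 and 183 in IPP libraries. The 4 DMSO brains were almost equal, while the IPP brains lay on both sides of them, with IPP 3 and IPP 4 lowest. The brain log2 fold change of -0.19 (95% interval -0.49 to 0.11) was 0.04 without IPP 3 and IPP 4. The smc6 gene, on the opposite strand, shares 30472 bases of span with vsnl1b, and its level was 0.0939 to 0.933 FPKM over all 16 libraries.

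The ratio of vsnl1b to vsnl1a in a library was therefore higher in IPP eyes. It ran from 1.11 to 1.44 in DMSO eyes and from 1.66 to 1.98 in exposed eyes, with no overlap. In brains it ran from 2.02 to 2.60 with DMSO and from 1.76 to 2.41 with IPP. The eye ratios with IPP lay between those of DMSO eyes and DMSO brains.

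**Figure D2:**
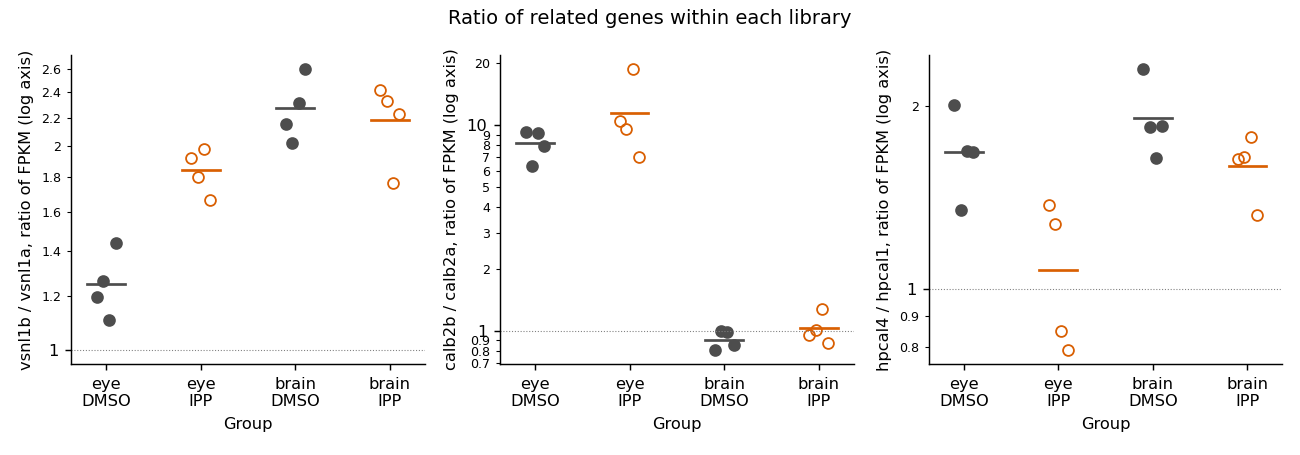
Ratio of FPKM of related genes in each library, on log axes, by group, with the group mean as a bar and a dotted line at equal levels. The vsnl1b to vsnl1a ratio is 1.11 to 1.44 in DMSO eyes and 1.66 to 1.98 in exposed eyes, the calb2b to calb2a ratio separates eyes from brains, and the hpcal4 to hpcal1 ratio overlaps between the eye groups.

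Hippocalcin-like proteins are sensors of the same family. The gene hpcal1 (chromosome 20, 31232923 to 31308805, minus strand) was the member that lay higher in IPP eyes. It stood at 2.44, 2.70, 2.48 and 2.49 FPKM in DMSO eyes, from 55 to 70 reads, and at 3.47, 3.25, 4.43 and 4.81 in IPP eyes, from 88 to 124 reads. All 4 IPP eyes were above all 4 DMSO eyes, with IPP 3 and IPP 4 highest, and the log2 fold change was 0.55 (SE 0.15, 95% interval 0.22 to 0.89). In brains it ranged over 7.61 to 10.8 FPKM with DMSO and 9.41 to 11.1 with IPP, overlapping groups with a log2 fold change of 0.13 (95% interval -0.14 to 0.41).

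The span of hpcal1 encloses apobb.1, a gene for apolipoprotein B, and slc22a16 on the opposite strand, and the labels mention directional as well as non-directional libraries, so reads of the strands may not be separated. Apobb.1 was at 0.0373 to 0.374 FPKM in DMSO eyes and at 0.937 to 4.96 in exposed eyes, and so lay higher in the same group of eyes as hpcal1. Within that group the order differed. Apobb.1 was at 0.937, 4.96, 1.26 and 4.08 FPKM in IPP eyes 1 to 4, highest in IPP 2, where hpcal1 was lowest at 3.25. In brains, apobb.1 was at 40.7 FPKM in DMSO 1, where hpcal1 had its lowest brain value of 7.61, and at 100.5 in IPP 4, where hpcal1 was at 11.1, while the other brains held 0.113 to 0.518 FPKM of apobb.1. The part of apobb.1 reads in the hpcal1 values was not tested.

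Hpcal4 (chromosome 19, 30517311 to 30565122, minus strand) is a further hippocalcin-like sensor gene. It ranged over 3.65 to 4.91 FPKM in DMSO eyes and 3.77 to 4.76 in exposed eyes, almost the same range, with a log2 fold change of -0.03 (95% interval -0.33 to 0.27). In brains hpcal4 was at 17.5 to 17.8 FPKM with DMSO and 14.7 to 17.5 with IPP, with a log2 fold change of -0.12 (95% interval -0.31 to 0.07). Only the eye groups of hpcal1 were separated, and in IPP eyes the ranges of hpcal4 and hpcal1 overlapped, which they did not in DMSO eyes. The ratio of hpcal4 to hpcal1 was 1.35 to 2.01 in DMSO eyes and 0.791 to 1.37 in exposed eyes.

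Neurogranin, the product of nrgna, is a small neuronal protein that in mammals binds calmodulin when calcium is low and releases it when calcium rises. The gene (chromosome 5, 58372164 to 58382655, plus strand) overlaps no other annotated gene. It stood at 111, 109.6, 104 and 94.0 FPKM in DMSO eyes 1 to 4 and at 80.8, 66.3, 62.7 and 61.2 in IPP eyes 1 to 4. All IPP eyes lay below all DMSO eyes, and IPP 1 came nearest to them. The mean went from 105 ± 7.81 to 67.8 ± 8.97 FPKM, a log2 fold change of -0.63 (SE 0.10, 95% interval -0.86 to -0.40).

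In brains nrgna stood at 74.2, 82.5, 86.1 and 65.3 FPKM with DMSO and at 68.5, 78.5, 82.3 and 90.3 with IPP. The brain groups covered one another, and the log2 fold change was 0.05 (95% interval -0.20 to 0.31). Unlike vsnl1a and vsnl1b, nrgna had its highest brain value in IPP 4.

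Among the buffers, the calretinin genes calb2a and calb2b both lay lower in every IPP eye than in any DMSO eye. Calb2b (chromosome 7, 24681278 to 24699985, minus strand, no overlapping gene) stood at 625, 660.4, 607 and 566 FPKM in DMSO eyes and at 539, 423, 482 and 445 in exposed eyes. The gap between the groups was narrow, from 539 to 566 FPKM, and closed under quantile normalization. The log2 fold change was -0.38 (SE 0.09, 95% interval -0.60 to -0.17), from 615 ± 39.5 to 472 ± 50.7 FPKM, a difference of mean levels that was larger in FPKM than that of any other member.

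Calb2a (chromosome 18, 21198762 to 21218851, minus strand, no overlapping gene) varied more. It stood at 67.3, 104, 66.6 and 71.3 FPKM in DMSO eyes and at 51.4, 44.2, 25.6 and 63.5 in exposed eyes. DMSO 2 was far above the other DMSO eyes and IPP 3 far below the other IPP eyes, and 63.5 and 66.6 FPKM were the nearest values across the groups. The log2 fold change was -0.78 (SE 0.26, 95% interval -1.36 to -0.21), and it was -0.53 without IPP 3.

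In brains the calretinin genes overlapped between the groups. Calb2a ranged over 62.2 to 75.8 FPKM with DMSO and 43.4 to 67.8 with IPP (log2 fold change -0.25, 95% interval -0.55 to 0.06), with IPP 3 lowest, as in eyes. Calb2b ranged over 53.6 to 66.0 FPKM with DMSO and 49.4 to 68.7 with IPP (log2 fold change -0.07, 95% interval -0.32 to 0.17). No label ties eye and brain libraries of the same number to the same larvae.

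Calb1 (chromosome 16, 36765934 to 36798783, minus strand), the gene of calbindin, showed overlapping groups in both tissues. It ranged over 7.55 to 10.9 FPKM in DMSO eyes and 6.73 to 8.08 in exposed eyes, with a log2 fold change of -0.28 (SE 0.13, 95% interval -0.57 to 0.01). In brains it ranged over 24.2 to 32.9 FPKM with DMSO and 21.8 to 34.0 with IPP, and the log2 fold change was -0.01 (95% interval -0.36 to 0.34). A further gene on the opposite strand, si:ch73-215d9.1, shares 30110 bases of span with calb1 and was at 1.31 to 3.60 FPKM in eyes and 7.06 to 11.4 in brains, and the part of its reads in the calb1 values was not tested.

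**Figure D3:**
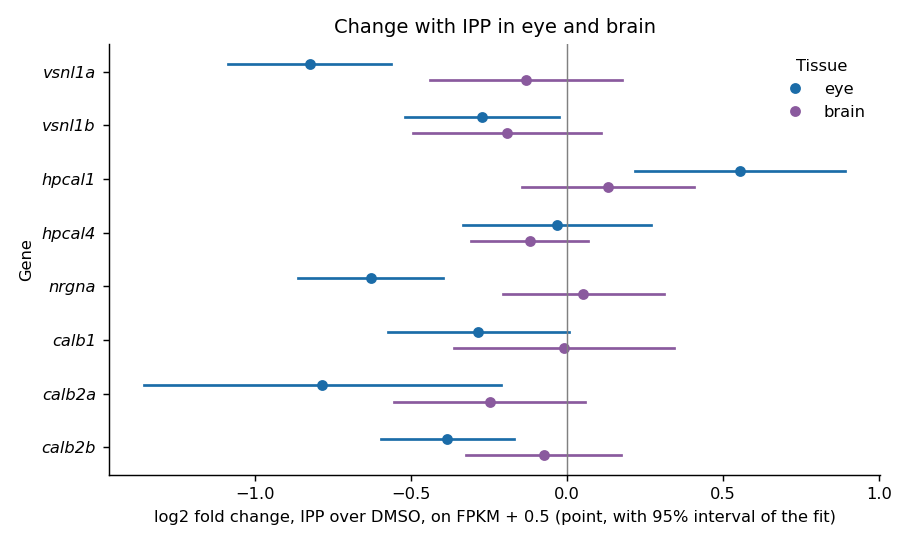
Log2 fold change of IPP over DMSO for each gene in eyes and brains, with the 95% interval of the fit. The eye intervals of vsnl1a, vsnl1b, nrgna, calb2a and calb2b lie below 0 and that of hpcal1 above 0, and all 8 brain intervals cross 0. The intervals are not corrected for the number of genes tested. Of all genes tested, 11% in eyes and 2.92% in brains had an unadjusted p under 0.05 (limma). The genes were picked with earlier results known, so nothing is read from which intervals leave out 0.

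Over the 8 genes, 7 lay lower and 1 higher in IPP eyes, with a median log2 fold change of -0.33, while 50.5% of the 17096 eye genes tested lay lower, with a median of 0.00 for all. These directions were the same under quantile normalization and with eye libraries rescaled without lens crystallins. Median-of-ratios scaling barely changed the values (median of the 8 genes -0.3337 without it and -0.3336 with it), so it is not a separate check. No member passed at an adjusted p under 0.05 in eyes, where limma called 0% of the genes (0 of 17096, and 1886, or 11%, at an unadjusted p under 0.05; limma-voom called 0, with 1932 at an unadjusted p under 0.05). The count over all eye genes was 3 without eye DMSO 4 and 1 without eye IPP 1, and no member was among them. In 4 of the 8 genes all IPP eyes lay below all DMSO eyes, against 3.54% of the eye genes tested, and in 1 they lay above, against 2.22%. Since the genes were picked with such results known, nothing is read from these shares.

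In brains 6 of the 8 genes were lower and 2 higher (median log2 fold change -0.10), against 46.9% lower and a median of 0.01 for all 17533 genes tested. No member passed, and limma called 0% of the brain genes (0 of 17533, and 512, or 2.92%, at an unadjusted p under 0.05; limma-voom called 0, with 498 at that unadjusted p). The groups were separated for 0 of the 8 genes, against 1.1% of brain genes with all IPP libraries lower and 0.958% with all higher. The brain directions of vsnl1a, vsnl1b, nrgna, calb1 and calb2b turned when libraries that stood apart were left out. Those of nrgna and calb1 also turned with library quality weights and no library left out. That of calb1 turned without brain DMSO 2 as well, which was not among the libraries that stood apart.

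The difference between the tissues was taken as the eye change minus the brain change over the 15856 genes tested in both. It was -0.69 on the log2 scale for vsnl1a (SE 0.18, 95% interval -1.09 to -0.30) and -0.68 for nrgna (SE 0.16, 95% interval -1.01 to -0.35), with calb2b at -0.31 (95% interval -0.61 to -0.0045) and hpcal1 at 0.42 (95% interval 0.03 to 0.81). The intervals of the other 4 genes included 0. No gene of the table passed the correction for this difference (limma, 0%, with 640 genes, or 4.04%, at an unadjusted p under 0.05; limma-voom called 0, with 612), so a difference between eye and brain was not established for any member.

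Markers of several retinal cell types moved with these genes in eyes. Of 12 neuron markers, 11 lay lower in IPP eyes, with a median log2 fold change of -0.28 and summed levels of 1617 to 2051 FPKM in DMSO eyes and 1454 to 1622 in exposed eyes. Of 12 markers of retinal ganglion cells, the output neurons of the eye, 10 lay lower, with a median of -0.56 and sums of 329 to 443 FPKM against 208 to 273. Of 12 tested markers of amacrine and horizontal cells, 11 lay lower, with a median of -0.29 and sums of 583 to 718 FPKM against 516 to 564. Of 12 photoreceptor markers 4 were lower and 8 higher (median 0.02), with overlapping sums of 16820 to 20083 and 17882 to 20366 FPKM. None of these marker lists had a gene at 0 in all libraries of a tissue. In IPP brains 12 of 12 neuron markers lay lower (median -0.10), as did 8 of 12 genes of the ganglion cell list (-0.07). Of the genes of the amacrine and horizontal cell list 9 of 12 lay lower there (-0.12). Which brain cells express the genes of these retinal lists was not tested, so the brain counts do not speak of retinal cells. Of photoreceptor markers 0 of 9 lay lower in IPP brains (median 0.95), and 0 of 9 had separated groups. Their sum was 171 FPKM in brain IPP 4, 7.03 to 36.7 in the other IPP brains and 3.15 to 34.9 in DMSO brains. The part of IPP 4 in that median was not tested.

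In IPP eyes skin and cornea markers lay higher in 6 of 7 and markers of dividing progenitors in 7 of 8. Progenitor sums were 351 to 396 FPKM in DMSO eyes and 408 to 435 in exposed eyes. Liver and gut markers lay higher in 4 of 5 tested in eyes, with a median log2 fold change of 1.45. Their sums were 16.3 to 179.8 FPKM in DMSO eyes and 37.5 to 150.4 in exposed eyes. The 179.8 was that of DMSO 1, with the other DMSO eyes at 16.3 to 24.1. Skin sums were 1130.1 to 2207 and 1291 to 2166. Muscle markers lay lower in 8 of 8, with sums of 56.7 to 129 and 39.0 to 74.1 FPKM. Radial and Mueller glia markers lay lower in 4 of 7 (median -0.005), with overlapping sums of 1185 to 1409 and 1325 to 1469 FPKM. Lens markers lay lower in 7 of 9 (median -0.12), with overlapping sums of 10785 to 24244 and 11433 to 18840 FPKM. In both eye groups 2 muscle markers and 1 skin marker were at 0 throughout. The part of these cell types in the values of the 8 genes was not tested, and in bulk tissue fewer cells of a type and less RNA per cell cannot be told apart.

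Set per 1000 FPKM of the summed ganglion cell markers, nrgna was at 274 ± 18.4 in DMSO eyes and 275 ± 33.4 in exposed eyes, and vsnl1a at 142 ± 11.6 and 123 ± 8.29, with overlapping ranges for both. On this ganglion cell scale hpcal1 at 6.65 ± 0.668 and 16.3 ± 3.99, hpcal4 at 11.2 ± 2.08 and 16.7 ± 1.75 and calb1 at 24.5 ± 3.73 and 30.8 ± 5.33 were higher in all IPP eyes than in any DMSO eye, for calb1 by a gap of 27.90 to 27.94. Vsnl1b was at 177 ± 23.7 and 226 ± 23.4, calb2b at 1612 ± 95.6 and 1926 ± 291 and calb2a at 201 ± 29.7 and 183 ± 46.5, with overlap. Set per 1000 FPKM of the summed neuron markers, vsnl1a was at 29.1 ± 2.08 and 19.8 ± 2.26 and nrgna at 56.5 ± 2.66 and 44.2 ± 5.80, with no overlap between the groups. On the neuron scale vsnl1b was at 36.5 ± 4.84 and 36.4 ± 4.62, and calb2b at 332 ± 13.0 and 308 ± 35.6, with overlap. Calb2a at 41.5 ± 7.33 and 29.8 ± 9.06, calb1 at 5.02 ± 0.666 and 4.91 ± 0.466 and hpcal4 at 2.30 ± 0.390 and 2.69 ± 0.296 overlapped there too. Hpcal4 and calb1 were thus higher in all IPP eyes on the ganglion cell scale but not on the neuron scale. Hpcal1 was higher in all IPP eyes on this scale too, at 1.37 ± 0.116 and 2.60 ± 0.471 per 1000 FPKM of neuron markers. The ganglion cell sum was itself lower in IPP eyes, at 208 to 273 FPKM against 329 to 443. A gene of unchanged FPKM therefore rises on the ganglion cell scale. In FPKM the eye log2 fold changes of hpcal4 and calb1 were -0.03 and -0.28, with overlapping groups. The share of all genes that separate on these scales was not taken. Both scales were chosen after the data were seen.

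**Figure D4:**
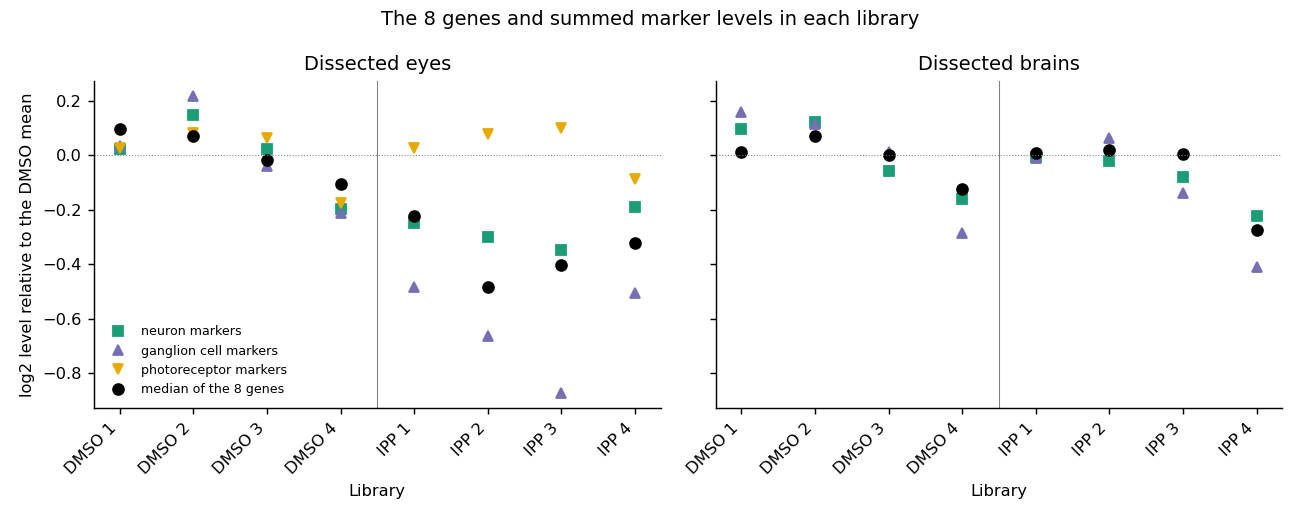
Median log2 level of the 8 genes in each library and the log2 summed levels of marker lists, relative to the DMSO mean of the log2 values in the same tissue. In IPP eyes the median of the 8 genes and the sums of neuron and ganglion cell markers lie below 0. The photoreceptor sums, shown for eyes alone, stay near 0. In brains the DMSO 4 and IPP 4 libraries lie lowest.

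Library by library, the median of the 8 genes in eyes was -0.10 to 0.10 on the log2 scale relative to the DMSO mean in DMSO libraries and -0.48 to -0.22 in IPP libraries. In brains it was -0.12 in DMSO 4 and -0.27 in IPP 4 and 0.00 to 0.07 in the others. The brain libraries with the lowest medians were those with the lowest neuron marker sums, 4130 FPKM in DMSO 4 and 3956 in IPP 4.

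The genes whose pattern was most like the mean profile of the 8 were found by the root mean square (RMS) difference of log2 levels over the 16 libraries, each gene centred within each tissue so that its difference between eye and brain did not count, among 6492 genes with a plain symbol and at least 5 FPKM in both tissues. They were rtn1a, which encodes a reticulon of the endoplasmic reticulum (RMS difference 0.0573), sypa, the synaptic vesicle protein synaptophysin (0.0590), evlb, an actin regulator of the Ena/VASP family (0.0631), sult4a1, a sulfotransferase of neurons (0.0647), and atp1b3b, a subunit of the sodium pump (0.0656). The median over the candidates was 0.204. Sypa was at 84.3 ± 7.88 FPKM in DMSO eyes and 67.0 ± 1.70 in exposed eyes, and at 179 ± 12.5 and 170.2 ± 11.96 in brains. Of the members themselves, each a part of the mean profile, calb2b was nearest to it (0.0896) and hpcal1 farthest from it (0.369). Vsnl1b, calb1, hpcal4 and nrgna lay at 0.124 to 0.180. Vsnl1a at 0.204 lay at the candidate median, and calb2a at 0.310 lay beyond it, as did hpcal1. The RMS difference counts the size of a change as well as its direction. A distance near or past the candidate median therefore need not mean another direction. In eyes the log2 fold changes of vsnl1a and calb2a were -0.82 and -0.78, against a median of -0.33 for the 8 genes, and that of hpcal1 was 0.55. The mean profile thus did not match every member in size or direction. The 16 libraries share tissue, scaling and markers, so the likeness is a description.

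The wider calcium genes, taken from lists of related genes that do not hold every family member and were made with earlier results known, differed from list to list in eyes. Of 14 tested other neuronal calcium sensor genes, 9 were lower and 5 higher (median log2 fold change -0.04), and 0 passed. Under quantile normalization 7 of the 14 lay lower, with the median again at -0.04. The 2 with separated groups, both lower in all IPP eyes, were genes of the DREAM type, which bind potassium channels and DNA. Of all eye genes tested, 3.54% had all IPP eyes lower and 2.22% had all higher. Since the lists were made with results known, nothing is read from separated groups in them. Kcnip3b went from 3.70 ± 0.880 FPKM in DMSO eyes to 1.36 ± 0.235 in exposed eyes, a log2 fold change of -1.16 (SE 0.19), and kcnip3a from 57.1 ± 8.38 to 34.7 ± 7.13 (-0.72, SE 0.16). The related kcnip2 was at 2.07 ± 1.03 and 3.83 ± 1.56 FPKM. In brains 7 of 11 lay lower, with a median of -0.09 and 0 passed, and kcnip3a was at 31.2 ± 3.58 and 28.6 ± 3.60 FPKM.

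The neurocalcin genes, close relatives of the hippocalcin-like sensors, stood at different levels in the tables of the tissues, which may have been scaled separately. Ncaldb was at 139.8 ± 22.1 FPKM in DMSO eyes and 6.97 ± 1.25 in DMSO brains, and ncalda at 11.4 ± 1.14 and 66.2 ± 1.33. The recoverin gene rcvrn3, whose family acts in photoreceptors, was at 436 ± 12.9 FPKM in DMSO eyes and 0.671 ± 0.574 in DMSO brains. In IPP eyes ncaldb was at 161 ± 42.7 FPKM and rcvrn3 at 434 ± 84.5, and the ranges of the groups overlapped. These genes were named after their values were seen.

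Of 9 tested other EF-hand buffers in eyes, 4 were lower and 5 higher (median 0.05), with 0 passing. Necab2, a neuronal calcium-binding protein, was at 8.72 ± 0.995 and 5.19 ± 1.59 FPKM in DMSO and IPP eyes, with separated groups. Pvalb1, a parvalbumin that also stands on the muscle marker list, was at 48.4 ± 22.6 and 18.2 ± 8.57, and pvalb8 at 72.1 ± 23.3 and 112 ± 29.1. In brains 8 of 10 lay lower, with a median of -0.13 and 0 passing. Of 8 tested genes for calmodulin-related CaBP proteins in eyes, 4 were lower and 4 higher (median 0.01), and in brains 2 of 6 lay lower, with a median of 0.12, and 0 passed. Under quantile normalization 5 of the 8 lay lower in eyes, with a median of -0.05. Caln1 was at 0.308 ± 0.257 and 0.703 ± 0.132 FPKM and cabp7b at 5.03 ± 0.743 and 4.01 ± 0.594 in eyes.

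**Figure D5:**
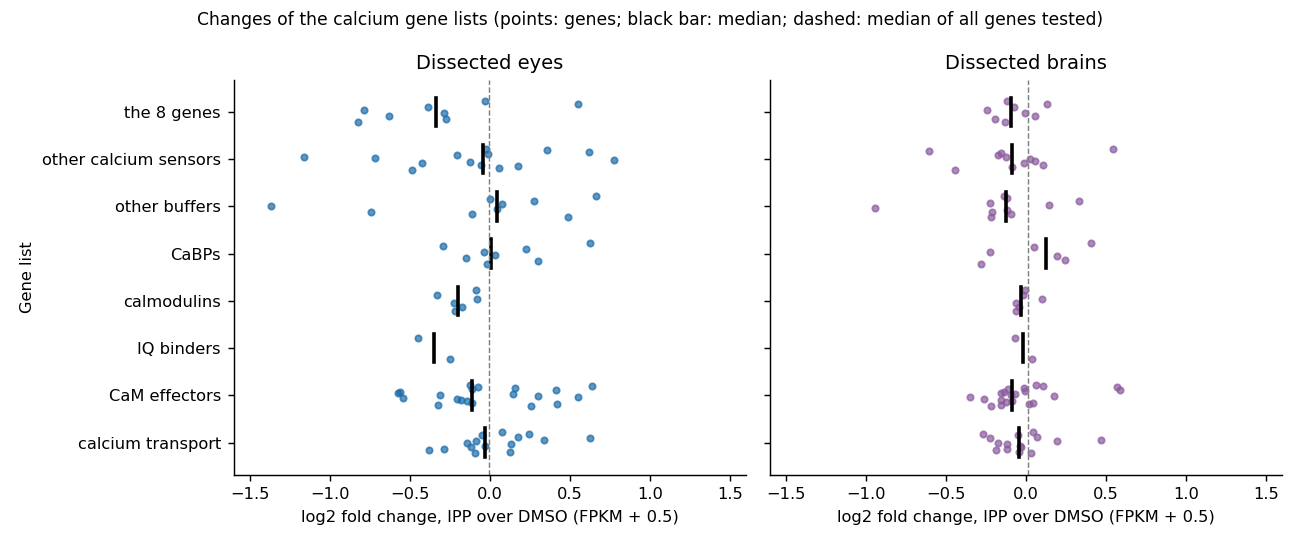
Log2 fold change of IPP over DMSO of every tested gene of the 8 described here and of 7 wider lists, in eyes and brains, with the list median as a black bar and the median of all genes tested as a dashed line. The calmodulin and IQ binder genes of the eye all lie left of 0, and the other wider lists spread to both sides.

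Of 6 calmodulin genes, all 6 lay lower in IPP eyes, with a median of -0.20 and log2 fold changes from -0.33 to -0.08, and 5 of 6 lay lower in brains, with a median of -0.03. Under quantile normalization these counts were also 6 of 6 and 5 of 6. Median-of-ratios scaling barely changed the values (eye median -0.195725 without it and -0.195721 with it), so its equal counts are not a separate check. None passed in either tissue. The calmodulin genes carry conflicting symbols in the tables and the reference, so they are given as a family. The exception is the gene with the largest eye difference, called calm3a in the tables. It was at 245 ± 19.1 and 195 ± 7.83 FPKM, with separated groups. Of the other small proteins that, like neurogranin, bind calmodulin through an IQ motif, both tested genes lay lower in eyes. Pcp4a went from 86.9 ± 7.79 to 63.5 ± 6.21 FPKM (log2 fold change -0.45, SE 0.10), with separated groups, and gap43, a growth cone protein, from 30.2 ± 4.16 to 25.3 ± 3.80 (-0.25, SE 0.13). In brains pcp4a was at 178 ± 13.2 and 169 ± 11.9 FPKM and gap43 at 345 ± 25.2 and 354 ± 31.8.

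Downstream of calmodulin, 12 of 20 tested kinase, phosphatase and cyclase genes lay lower in IPP eyes, with a median of -0.11, and 14 of 21 in brains, with a median of -0.09, and 0 passed in either. Of 4 tested catalytic calcineurin genes, ppp3cb and ppp3ca were at 59.8 ± 8.03 and 40.3 ± 4.08 FPKM and at 24.5 ± 2.68 and 16.5 ± 3.13 in DMSO and IPP eyes (log2 fold changes -0.56, SE 0.12, and -0.57, SE 0.15). The eye groups of both were separated. The other two, named after their values were seen, were at 6.24 ± 1.99 and 8.57 ± 3.17 FPKM for ppp3cca (0.41, SE 0.26) and 4.15 ± 0.674 and 4.05 ± 2.06 for ppp3ccb (-0.11, SE 0.26). Camk4, a calmodulin-dependent kinase, was at 6.08 ± 0.807 and 4.08 ± 0.977 FPKM in DMSO and IPP eyes, with separated groups. In brains ppp3ccb was at 5.28 ± 2.08 and 7.84 ± 1.14 FPKM and camk2b1 at 95.3 ± 3.34 and 85.5 ± 6.05. Of 15 tested genes for pumps, exchangers and store channels, 8 lay lower in eyes, with a median of -0.03, and 10 in brains, with a median of -0.04, and 0 passed. The plasma membrane calcium pumps atp2b2 and atp2b3a were at 17.4 ± 2.52 and 13.3 ± 2.30 FPKM and at 55.8 ± 5.99 and 45.8 ± 6.44 in DMSO and IPP eyes.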

How the data were processed

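The authors deposited gene levels as FPKM, in a table for eyes and a table for brains that also hold gene length and position. The submitters' processing notes name HISAT2 2.0.5 and featureCounts 1.5.0-p3 without their roles. The sources used here do not give the build, the FPKM formula or whether strand was used in counting. FPKM times gene length gave whole multiples of 1 step, to within 0.01 read, in 100% of the values of each library, which returns reads per gene, and these sum to 9.62 M to 16.3 M per library. Nothing was done to the FPKM values beyond the log.

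The filter was a tissue mean of 0.5 FPKM or more, and all 8 genes described passed it in both tissues. The fit of IPP against DMSO used limma 3.58.1 (R 4.3.3) and log2(FPKM + 0.5) (lmFit, eBayes with trend, two-sided, Benjamini-Hochberg adjustment over all genes tested, threshold 0.05), without block or covariate, and the tissue difference as an interaction contrast. The fit was also run on simulated data with independent errors and planted log2 changes larger than that of any member. Its outcome is not given here, and it does not speak of changes as small as those of the members.

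The members and the gene lists were chosen with earlier results of these data known. Genes beyond the members were named as the up to 3 with the smallest p per list and tissue and the 5 of most similar pattern, and others are marked. The wider calcium lists hold 95 symbols, matched by the symbol of the tables or else of the reference. Reads shared between paralogs were not tested. Alternatives were other pseudocounts, filters and scalings, limma-voom, library quality weights, a replicate block and left-out libraries.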

Additional observations from a re-analysis of the deposited data

Results flagged for a closer look

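In each group of 4, a library was marked where its gap to the nearest other, over the range of the group, passed Dixon's 95% critical value. Of the 8 genes, 1 value in 32 groups was marked, that of calb2a in eye DMSO 2 at 104 FPKM (gap over range 0.873), with the other DMSO eyes at 66.6 to 71.3. Without that library the calb2a difference in eyes was -0.63 on the log2 scale. Ppp3cca and the genes that overlap members, such as apobb.1, were not screened. Among 104 groups of the other genes named, a number that includes groups left unscreened for a mean under 0.5 FPKM, 5 more were marked. They were rcvrn3 in eye IPP 4 at 559 FPKM (others 380.1 to 410.5), pvalb1 in brain DMSO 4 at 342 (22.1 to 32.98), ppp3ccb in eye IPP 3 at 7.11 (2.65 to 3.35), atp2b2 in brain DMSO 4 at 89.0 (109.7 to 112) and sypa in eye IPP 1 at 69.5 (65.9 to 66.4). Chance marks about 1 in 20 groups.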

How the results depend on the processing

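No member passed at an adjusted p under 0.05 under any alternative run. The smallest adjusted p was 0.0528 (limma), for vsnl1a in eyes without DMSO 4 and IPP 4. Runs that left out more than 1 library were not planned in advance. Eye DMSO 4 held the lowest vsnl1a value of the DMSO eyes, at 47.4 FPKM. Over all genes tested, the count called in eyes was 0 to 3 with single libraries left out and 40 (8 lower and 32 higher) without DMSO 4 and IPP 4. It was 1 in brains without DMSO 4, IPP 3 and IPP 4, also 1 without DMSO 1 and IPP 4, and 1 for the tissue difference without brain IPP 3 and IPP 4 or without those and brain DMSO 4. Correlations of residuals between same-numbered DMSO and IPP libraries were -0.09 to 0.04 in eyes and -0.09 to 0.33 in brains. Those between unlike numbers were -0.16 to 0.18 in eyes and -0.48 to 0.39 in brains. With so few pairs, these values cannot decide whether the numbers pair the libraries. The replicate block called 0 genes in each comparison, with 1737, 616 and 670 at an unadjusted p under 0.05 in eyes, brains and their difference. In eyes the direction of vsnl1a, vsnl1b, nrgna, calb1, calb2a, calb2b and hpcal1 was kept in all alternatives. With single libraries left out, the eye log2 fold changes ranged over -0.88 to -0.73 for vsnl1a, -0.72 to -0.58 for nrgna, -0.96 to -0.53 for calb2a, -0.45 to -0.33 for calb2b and 0.47 to 0.63 for hpcal1. That of hpcal4 ranged over -0.10 to 0.034.

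Small brain differences changed sign. With single libraries left out, they ranged over -0.20 to -0.01 for vsnl1a, -0.024 to 0.12 for nrgna, -0.094 to 0.12 for calb1 and -0.16 to -0.01 for calb2b, and with quality weights they were -0.032 for nrgna and 0.085 for calb1. Without brain IPP 3 and IPP 4 they were 0.044 for vsnl1b, -0.063 for nrgna, 0.17 for calb1 and 0.050 for calb2b, and with DMSO 4 left out too 0.042 for vsnl1b, -0.14 for nrgna and 0.081 for calb1. Without DMSO 1 and IPP 4 they were 0.021 for vsnl1a, -0.024 for nrgna, 0.18 for calb1 and 0.00034 for calb2b. The eye minus brain difference of vsnl1b was -0.19 to 0.025 with single libraries left out, -0.32 without brain IPP 3 and IPP 4, with or without brain DMSO 4, -0.20 without brain DMSO 1 and IPP 4, 0.045 with quantile normalization and 0.0071 without eye DMSO 1 and DMSO 2. The cause of these sign changes was not tested. The count of members with all IPP eyes lower was 4, with 3 under quantile normalization, 4 under median-of-ratios scaling and 5 with eye libraries rescaled without lens crystallins. Median-of-ratios scaling barely changed the values, so its count is not a separate check.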
